A study of Ovis aries with 36 samples.

Results

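Psoas major (PM), the muscle under the lumbar spine that flexes the hip and is cut as the tenderloin, was compared with the mean of 8 other muscles of the same lambs by RNA-Seq. The 4 PM samples, from animals 1 to 4, were chosen by their muscle label among 36 samples in all, and the other 32 samples held 4 each of Supraspinatus (SS) from the shoulder, Longissimus lumborum (LL) from the back and, from hip and thigh, Adductor (AD), Rectus femoris (RF), Semitendinosus (ST), Gluteus medius (GM), Semimembranosus (SM) and the cranial part of Gluteobiceps (GB). The animals were 4 unrelated Poll Dorset cross-bred lambs from different flocks, aged 14 months and weighing 67 to 72 kg, untreated apart from a shared diet of grassland with soy and sorghum, and each gave all 9 muscles. A piece of the superficial belly of each muscle was taken after slaughter, so each value describes that piece and not the whole muscle.

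Skeletal muscle fibres are broadly slow or fast. Slow fibres contract slowly, rely on oxidative metabolism and carry their own isoforms of troponin, tropomyosin, myosin light chain and the calcium pump of the sarcoplasmic reticulum, while fast fibres carry another set of isoforms. Muscles of different body segments can also keep the expression of HOX genes, transcription factors that mark position along the body axis in the embryo.

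PM libraries held 4118178 to 6209124 counts and the others 3699148 to 6427422. The 4 most counted loci took 69.3 to 70.5% of the counts in PM and 65.7 to 78.3% elsewhere. Expression is given as CPM, the share of a sample's TMM-normalized library on the usual scale, without correction for gene length, so levels are compared between samples and not between genes. In PM a total of 3 counts, taken as the detection floor, equals 0.430 to 0.672 CPM. The files hold no gene symbols. Loci were given names through coordinates that the study printed for genes it found to differ between ST or SM and SS, so the named genes were picked on samples that enter the mean used here and are not independent evidence of direction. Of the 452 symbols in the gene lists drawn up for this comparison, 22 could be paired with exactly 1 tested locus carrying an Ensembl identifier. None of the 80 marker symbols of fat, vessel, connective tissue, nerve, immune and satellite cells could be paired, so the cell make-up of the samples was not analysed here. In whole tissue, fewer cells of a type and less RNA per cell cannot be told apart.

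PM differed from the mean of the other muscles at 44 of 12461 loci tested (0.353%), of which 39 were higher in PM (0.313%) and 5 lower (0.0401%). A locus was called when its FDR (edgeR's quasi-likelihood test, Benjamini-Hochberg adjusted) was at most 0.01 and the absolute log2 fold change (log2FC) was above 1. At an unadjusted p under 0.05 there were 1417 loci. Without animal 4 the calls fell to 27, with 24 higher and 3 lower, and 2 and 3 loci were lower without animals 1 and 3. With ST left out of the mean, 25 loci were higher. The within-animal difference had the sign of the fitted one in all 4 animals for 38 of the 39 higher loci and all 5 lower loci. The calls came from these same differences, so this is a description and not separate evidence. The 39 higher loci were not all highest in PM. PM had the highest mean of the 9 muscles at 23 of them, SS at 8 and LL at 6, and ST had the lowest mean at 24. Of the 44 called loci, 38.6% had no Ensembl identifier, against 25.4% of all loci tested.

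The leading named group was the slow-fibre sarcomere and calcium genes. Of the 17 genes in that list, 9 could be paired with 1 tested locus, and 8 of these 9 were called higher in PM and none lower. The same 8 passed an FDR of 0.05 at any fold, a level that 1.53% of all loci tested passed, 1.04% higher and 0.498% lower. The ninth, CASQ2, the calsequestrin that stores calcium in slow and cardiac muscle, had a log2FC of 0.65 ± 0.19 (SE over 4 within-animal differences) and an FDR of 0.0877. The median log2FC of the 9 genes was 1.43, against -0.00278 over all loci tested.

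MYL3, the essential myosin light chain of slow skeletal and ventricular muscle (chr19:52560400-52569198 on Oar_v3.1), had the clearest difference in this group. It reached 183, 193, 207 and 159 CPM in PM of animals 1 to 4. In the other 32 samples the lowest, median and highest values were 1.09, 49.1 and 91.7 CPM. No other sample reached the lowest PM sample, and PM was the highest of the 9 muscles in every animal. The log2FC was 2.47 ± 0.20, with an FDR of 4.2e-12.

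TPM3, the slow-fibre tropomyosin (chr1:103039221-103067829), measured 178, 194, 285 and 214 CPM in PM. The other samples ran from 10.1 CPM through a median of 67.6 to 190 CPM in SS of animal 3, which was the only 1 of them above the lowest PM sample. PM was again highest in all 4 animals, with a log2FC of 1.78 ± 0.07 and an FDR of 5.8e-10. An unannotated locus with the same coordinates rose likewise, with a log2FC of 1.70 ± 0.05 and an FDR of 6.4e-07. Counting by strand is not stated in the sources used here, so reads of these overlapping loci cannot be told apart.

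The 3 slow troponin subunits, which make thin filaments respond to calcium, were all called higher. TNNC1, the calcium-binding subunit (chr19:48403558-48406316), measured 230, 373, 420 and 294 CPM in PM, with a log2FC of 1.52 ± 0.09 and an FDR of 4.3e-06, and was highest in PM in 4 of 4 animals. TNNI1, the inhibitory subunit (chr12:78585640-78596742), measured 56.6, 71.5, 73.2 and 56.8 CPM, with a log2FC of 1.60 ± 0.18 and an FDR of 1.3e-05. TNNT1, the tropomyosin-binding subunit (chr14:59547242-59556889), measured 245, 273, 275 and 232 CPM, with a log2FC of 1.39 ± 0.10 and an FDR of 2.2e-05. For each subunit some SS samples lay within or above the PM range. ATP2A2, the slow and cardiac calcium pump SERCA2 (chr17:53803321-53860163), measured 357, 533, 449 and 352 CPM in PM and a median of 195 CPM in the other samples, with a log2FC of 1.33 ± 0.13 and an FDR of 1.7e-06.

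The remaining called genes of the list rested more on single animals. MYOM3, a protein of the M-band (chr2:241688442-241741074), measured 60.7, 25.4, 21.6 and 19.5 CPM in PM, so animal 1 stood above the others. Its log2FC was 1.43 ± 0.40 with an FDR of 1.6e-04, and without animal 1 it was 1.05 with an FDR of 0.0265, which is no longer called. MYOZ2, a Z-disc protein of slow and cardiac muscle (chr6:6264895-6303407), measured 18.6, 23.3, 59.7 and 32.3 CPM, and its log2FC of 1.05 ± 0.23 (FDR 2.6e-04) lost the call without animal 3 (0.93) or animal 4 (0.99), as it did with ST (0.69), RF (0.86) or LL (0.97) left out of the mean. PM was the highest muscle for MYOZ2 in none of the 4 animals.

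**Figure D1:**
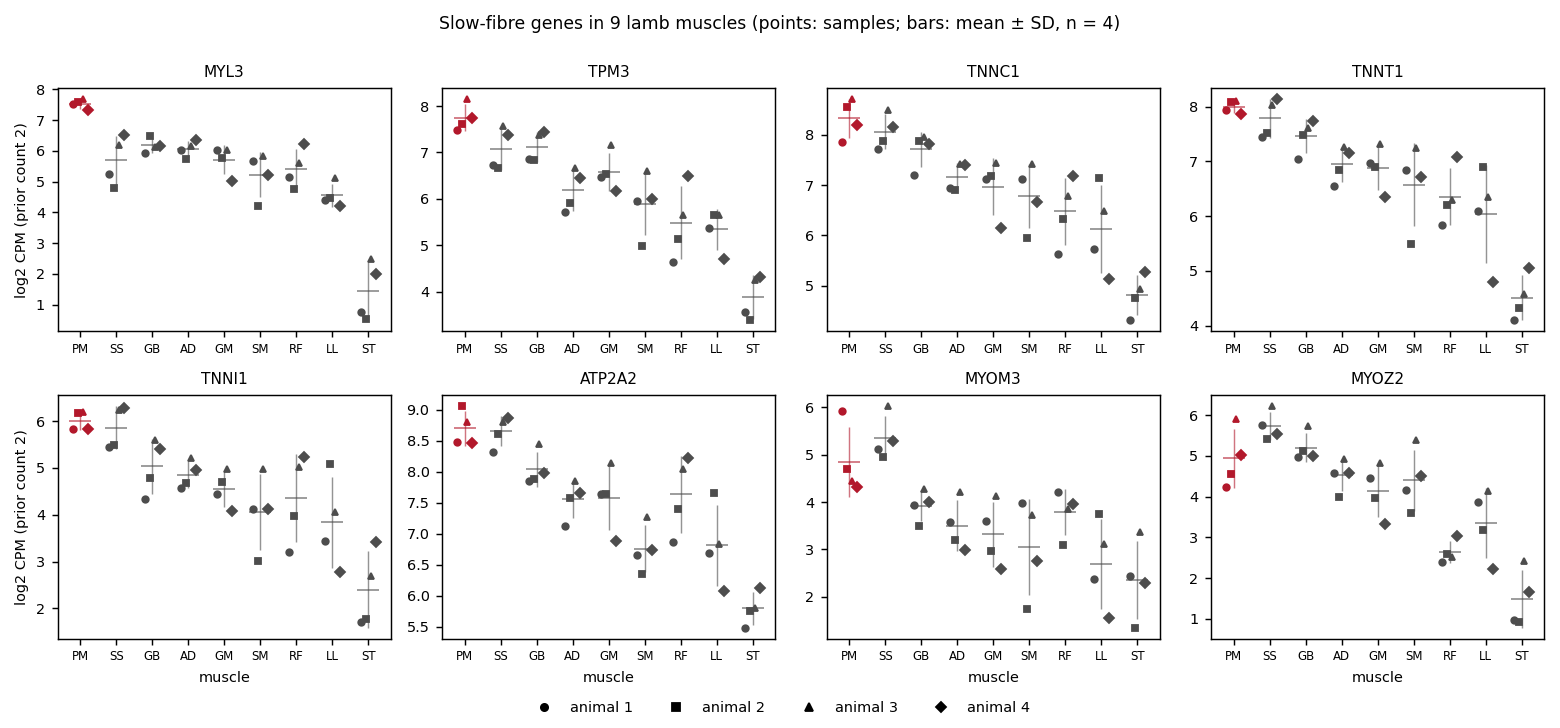
Log2 CPM (y axis, prior count 2) of the 8 called slow-fibre genes in each of the 9 muscles (x axis); points are samples, with a marker shape per animal, and bars give the mean ± SD over 4 animals, with PM in red. For MYL3 all PM points lie above every other sample, for the troponins and ATP2A2 the PM and SS points overlap, and for MYOZ2 and MYOM3 the SS mean is above the PM mean.

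Averaged over the 9 paired genes, CASQ2 included, log2 CPM was 6.55 ± 0.12 (SD, n = 4) in PM, 6.39 ± 0.39 in SS, 5.91 ± 0.25 in GB, 5.48 ± 0.24 in AD, 5.34 ± 0.43 in GM, 5.01 ± 0.65 in SM, 4.88 ± 0.51 in RF, 4.59 ± 0.58 in LL and 3.06 ± 0.47 in ST. These averages are a description on a scale without length correction, and carry no test. PM was above SS in 2 of 4 animals and above each of the other 7 muscles in 4 of 4. Without MYL3 the mean was 6.43 ± 0.11 in PM and 6.48 ± 0.36 in SS, so the PM mean was above the SS mean only with MYL3 counted. Either way PM was above SS in 2 of 4 animals, and the gap between the means was smaller than the SD in SS. Gene by gene, the pair tests called all 8 of the genes above higher in PM than in ST and LL, 7 higher than in SM and 6 higher than in RF. Against GM and SS only MYL3 was called, against AD only TPM3, and against GB none, although the log2FC against GB lay between -0.22 for MYOZ2 and 1.33 for MYL3 (FDR 0.019). These 8 pair tests share the PM samples.

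Other loci paired with study coordinates outside those 9 genes were called too. MYLK3, the kinase of cardiac myosin light chain (chr14:14547940-14606419, paired by the end of its printed span alone), measured 45.0, 53.4, 28.6 and 34.0 CPM in PM, with a log2FC of 1.59 ± 0.30 and an FDR of 2.2e-07. GB came near, with a mean of 36.8 CPM against 40.2 CPM in PM. The point used to pair MYLK3 falls within 5 tested loci, of which only this 1 has an Ensembl identifier. Among the unannotated ones, 1 was also called higher in PM, and reads of these overlapping loci cannot be told apart. The coordinates of MYL2, the slow regulatory light chain, and of CCDC63 fall within a pair of loci that share the span chr17:54257918-54303146, so neither name can be assigned. Both loci were called higher, with log2FC of 1.39 ± 0.19 and 1.45 ± 0.17. The mean in SS was above that in PM at both, at 49.6 against 38.8 CPM and at 153 against 134 CPM. MYH7B, a myosin heavy chain of the slow-fibre list, falls within another pair of loci, and neither was called. At 1 of these PM measured 81.5, 43.5, 21.3 and 34.1 CPM. The PM mean there was 45.1 ± 25.9 CPM (SD, n = 4), below 74.2 CPM in SS and near 46.1 CPM in GB and 40.7 CPM in GM. FABP3, the fatty acid carrier of oxidative muscle, also falls within a pair of loci, at chr2:235135327-235198261, of which 1 was called (log2FC 1.11 ± 0.11, FDR 4.8e-04) and the other was not (0.12 ± 0.13, FDR 0.925). The call was lost without animal 3 (FDR 0.0116) and with ST left out of the mean (log2FC 0.90). An unannotated transcript at chr1:230473614-230478546 measured 14.8, 14.5, 20.7 and 19.9 CPM in PM against a median of 5.87 CPM elsewhere, with a log2FC of 1.71 ± 0.12 and an FDR of 9.6e-05. Its mean was 18.9 CPM in SS and 17.5 CPM in PM.

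Among the 31 named genes paired with 1 locus, most of those outside the slow-fibre list were not called. Of these 22 genes, MYLK3 was the only 1 called, 3 had an FDR of at most 0.05 and 19 an FDR above it. Over all loci tested, 0.353% were called and 1.53% had an FDR of at most 0.05. The study had picked these genes as differing between muscles, so no absence of difference is read from the count. FREM2, a basement membrane protein, had a log2FC of 0.92 ± 0.09 at an FDR of 0.005, below the fold threshold. PVALB, the calcium buffer of fast fibres and the only paired gene of the fast-fibre list, was at 0.224, 0.312, 0 and 0 CPM in PM, under the detection floor, and its FDR was 1. The gene lists for glycolysis, fatty acid use, patterning, channels and muscle growth had between 0 and 4 paired members each, and MYLK3 was the only called gene among them.

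PM and SS both had high slow-fibre genes, and the pair test between them called 113 loci (0.907%), 65 higher in PM and 48 lower. With 1 animal left out this count was 120, 71, 32 and 49 for animals 1 to 4, so it moved more than 1.5 times without animal 2, 3 or 4. MYL3 was higher in PM than in SS in 4 of 4 animals, at 185 ± 19.99 against 57.5 ± 29.8 CPM (SD, n = 4 each), with a log2FC of 1.78 ± 0.44 and an FDR of 2.7e-04. For the other 7 slow genes the log2FC between PM and SS ran from -0.75 for MYOZ2 (± 0.26, FDR 0.0697) to 0.67 for TPM3 (± 0.12, FDR 0.12), and none was called. MYL3 therefore stood higher relative to the other slow genes in PM. Log2 CPM of MYL3 minus the mean log2 CPM of the other 7 genes was 0.593 ± 0.0893 (SD, n = 4) in PM, with a lowest sample of 0.50. In SS it was -1.24 ± 0.527, and the highest mean elsewhere was 0.245 ± 0.248 in AD, whose highest sample was 0.458. This measure was formed after the values had been seen and carries no test.

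Other genes with a high mean in SS had a lower mean in PM and in every other muscle. The study had picked them on these same SS samples. The coordinates of MYL6, a myosin light chain of smooth and non-muscle cells, fall within a pair of loci at chr3:163076924-163101778. At 1 of them SS measured 62.2, 57.2, 100 and 68.7 CPM and PM 4.93, 4.84, 5.18 and 2.72 CPM, a log2FC of -4.05 ± 0.24 in PM against SS with an FDR of 4.2e-10. The remaining muscles averaged from 4.50 CPM in RF to 19.8 CPM in SM at this locus. The other locus of the span measured 30.2 CPM on average in PM and 26.9 CPM in SS. METTL21C, a lysine methyltransferase of skeletal muscle (chr10:78272110-78285629), measured 15.6, 41.9, 87.8 and 88.6 CPM in SS and 3.13, 0.780, 3.32 and 0.860 CPM in PM, with a log2FC of -5.27 ± 0.85 and an FDR of 3.8e-07. In animal 1, METTL21C was higher in LL (18.8 CPM) and AD (17.9 CPM) than in SS. Against the mean of all other muscles neither locus was called in PM, with FDRs of 0.0155 for the locus at the MYL6 position and 0.303 for METTL21C.

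The paired HOX genes separated PM, like most of the other muscles, from the forelimb muscle SS and, for HOXD8, from RF. HOXD8 (chr2:132873609-132877353) measured 4.25, 7.80, 11.4 and 8.03 CPM in PM, 0.606 ± 0.630 CPM in SS and 1.42 CPM on average in RF. The remaining muscles averaged from 7.42 CPM in GB to 14.1 CPM in LL. The log2FC was 3.69 ± 0.42 against SS (FDR 9.5e-08) and 2.45 ± 0.25 against RF (FDR 6.3e-06). HOXC10 (chr3:132378062-132383225) measured 1.79, 3.28, 3.11 and 2.15 CPM in PM and had no count in any of the 4 SS samples, with an FDR of 2.7e-07. Its mean in the remaining muscles ran from 2.10 CPM in GM to 3.51 CPM in ST. PM did not stand apart from the mean of all 8 muscles for either gene, with FDRs of 0.132 and 0.125, and the small HOXC10 log2FC of 0.75 turned to -0.12 when SS was left out of the mean.

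**Figure D2:**
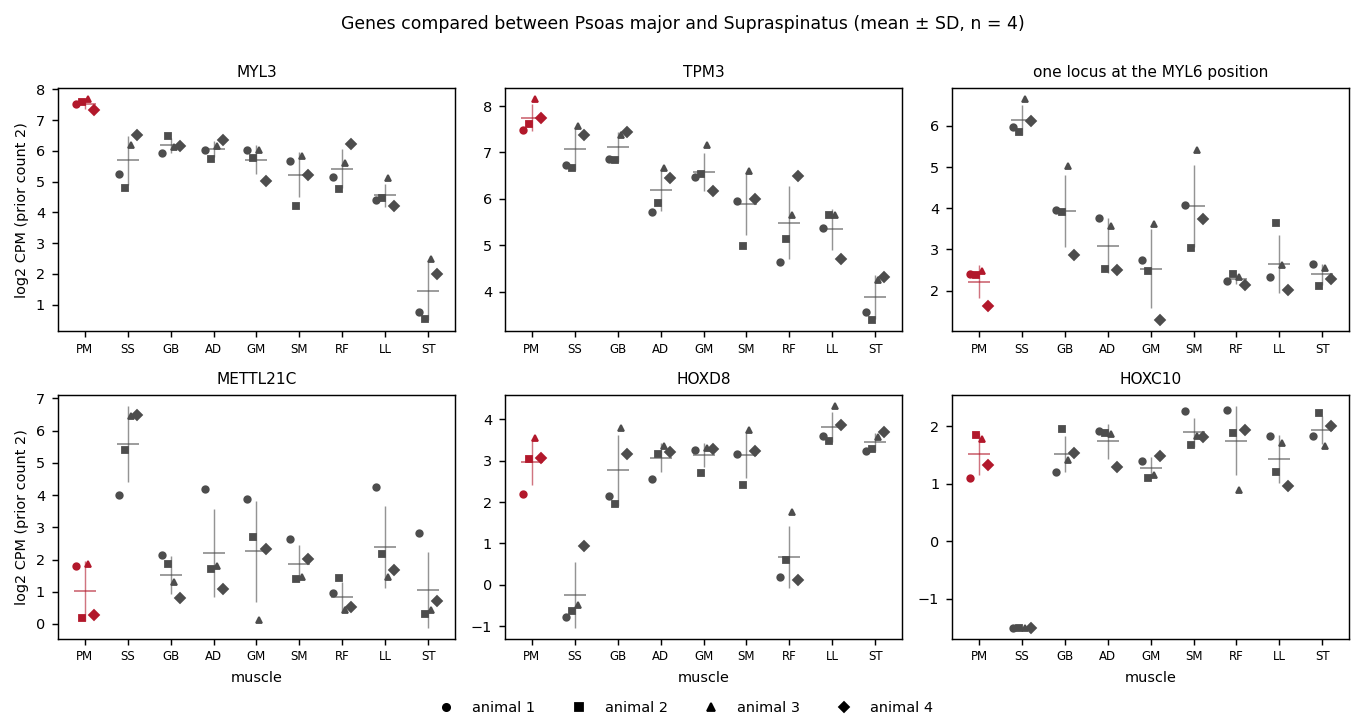
Log2 CPM (y axis, prior count 2) of 6 loci in each muscle (x axis); points are samples, with a marker shape per animal, and bars give the mean ± SD over 4 animals, with PM in red. PM points lie above SS for MYL3, HOXD8 and HOXC10 and below SS for the locus at the MYL6 position and METTL21C, where SS exceeds nearly all other samples.

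The locus with the smallest p of all was ENSOARG00000011739 (chr8:36569062-36646572), which the files do not pair with a symbol. It had 25, 38, 63 and 47 counts in PM of animals 1 to 4 and 21, 20, 44 and 20 counts in LL. SS and AD had 3 counts each over 4 samples, and SM, ST, GB, GM and RF had 0. Its counts thus lay almost wholly in the lumbar muscles PM and LL, and animal 3 was highest in both. Pooled over the 4 animals, PM was at 7.63 CPM, at least 48.3-fold higher than ST and at least 67.2-fold higher than GM, the lowest and highest bounds among the 5 muscles at 0, taking 3 counts over the 4 samples of a muscle as the floor. The FDR against the mean of the other muscles was 1.7e-12. Between PM and LL the log2FC was 0.79 ± 0.10, higher in PM in 4 of 4 animals, with an FDR of 0.206.

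Further annotated loci without a symbol were called higher in PM. The locus at chr23:30335650-30350209 measured 16.8, 22.2, 21.1 and 27.1 CPM in PM, and the other samples had a median of 8.17 and a highest value of 16.6 CPM, so the groups did not overlap. It was highest in PM in 4 of 4 animals, with a log2FC of 1.40 ± 0.18 and an FDR of 1.7e-06. This locus and MYL3 were the only 2 of the 44 called loci at which the 4 PM samples lay wholly outside the range of the other 32. Such loci were not counted over all loci tested, so this number has no background share. At the chr23 locus the gap was narrow, from 16.6 CPM in AD of animal 4 to 16.8 CPM in PM of animal 1. ENSOARG00000019971 (chr8:19396081-19553431) measured 103, 85.8, 163 and 116 CPM in PM and a median of 50.5 CPM elsewhere, with a log2FC of 1.11 ± 0.20 and an FDR of 6.0e-07, and only SS (96.2 CPM) and GB (88.1 CPM) came near. Without animal 3 its log2FC was 0.95, below the fold threshold. A highly expressed locus at chr7:21104083-21157369 followed the slow genes, with 2144, 2945, 1994 and 1930 CPM in PM, 2558 CPM on average in SS and 221 CPM in ST, a log2FC of 1.27 ± 0.23 and an FDR of 2.8e-04, and it was not called without animal 1 (FDR 0.0181) or with ST left out of the mean (0.97).

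PM was the highest muscle in all 4 animals at 17 of 12461 loci (0.136%), and 9 of these were among the called ones. The others differed by less than the fold threshold or missed the FDR. A locus at chr1:89444582-89477240, for example, measured 47.5, 26.8, 40.6 and 37.8 CPM in PM and a median of 21.8 CPM elsewhere, with a log2FC of 0.82 ± 0.07 and an FDR of 2.2e-05.

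Only 5 loci were called lower in PM, and all carry an Ensembl identifier without a symbol. ENSOARG00000016476 (chr2:119229086-119270385) measured 171, 173, 115 and 115 CPM in PM, against a lowest, median and highest value of 130, 370 and 982 CPM in the other samples. PM was the lowest muscle in each animal, with a log2FC of -1.43 ± 0.12 and an FDR of 2.4e-04. The next lowest muscles were AD at 195 ± 78.3 CPM, and LL at 282 CPM, and neither pair test passed (log2FC -0.40 with an FDR of 0.765 and -0.94 ± 0.20 with an FDR of 0.103).

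ENSOARG00000018035 (chr14:23241098-23268403) measured 6.94, 7.49, 5.18 and 4.59 CPM in PM and a median of 14.3 CPM elsewhere, and was lowest in PM in 4 of 4 animals (log2FC -1.27 ± 0.09, FDR 0.0016). Its neighbour at chr14:23434464-23499283 was also called (-1.19 ± 0.29, FDR 0.0099), just inside the threshold, and it shares its coordinates with a locus that was not. A low locus at chr5:49148846-49152054 measured 1.12, 2.19, 1.24 and 2.72 CPM in PM and was lowest there in 4 of 4 animals (log2FC -1.14 ± 0.30, FDR 0.0037). The locus at chr15:39966160-40174168 was at 1.79, 0.936, 4.14 and 2.29 CPM in PM and highest in LL (10.6 CPM), but its mean in ST was lower still (1.80 CPM, log2FC of -1.30 ± 0.15 against the mean of 8, FDR 0.0084). Of the 5 loci, only ENSOARG00000016476 kept its call with each animal left out in turn. PM was the lowest muscle in all 4 animals at 4 loci (0.0321%), 3 of them called, and the fourth was chr1:175728403-175764056, with 36.9, 29.3, 29.0 and 29.2 CPM in PM and a median of 59.5 CPM elsewhere (log2FC -0.93 ± 0.05, FDR 4.8e-04).

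**Figure D3:**
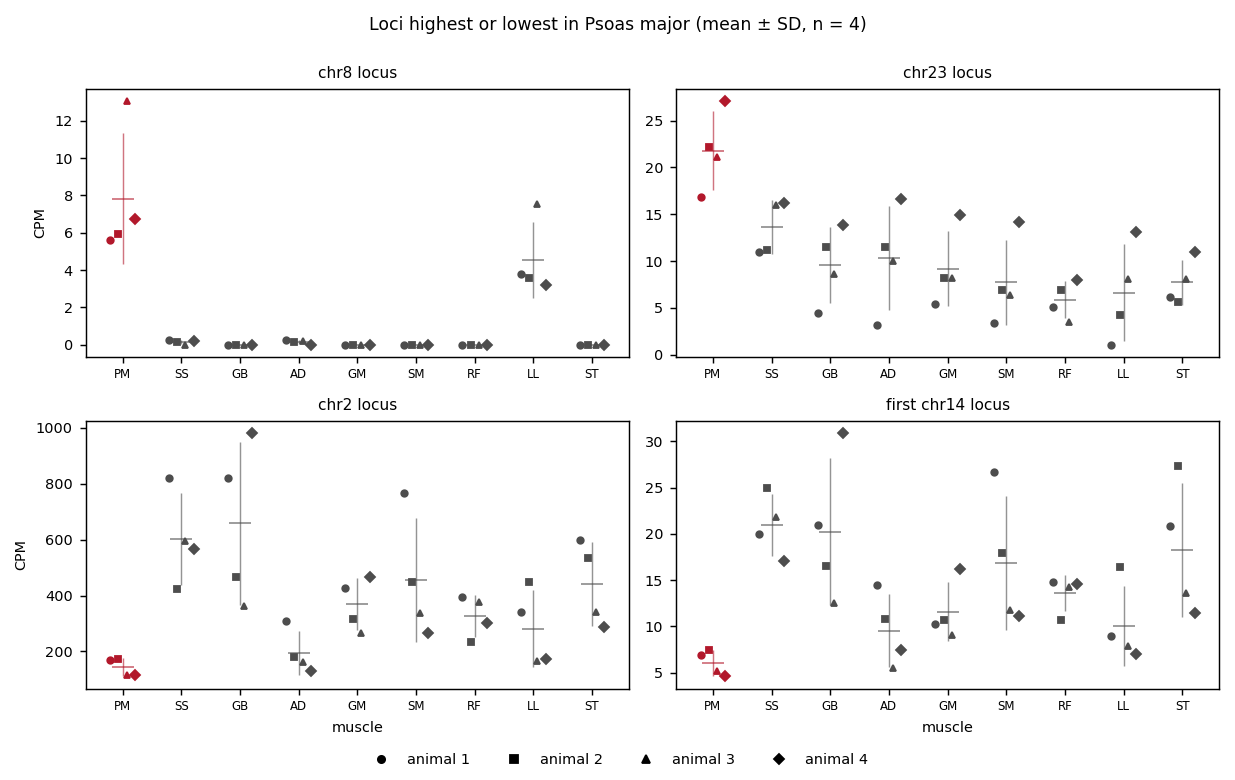
CPM (y axis, linear) of 4 loci without a gene symbol in each muscle (x axis); points are samples, with a marker shape per animal, and bars give the mean ± SD over 4 animals, with PM in red. The chr8 locus is at or near 0 outside PM and LL, the PM points of the chr23 locus lie above all others, and for the chr2 and the first chr14 locus PM is the lowest muscle, with AD and LL next to it.

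Some called loci lay next to each other. Stretches were formed after the calls were known, by joining called loci less than 250 kb apart and adding tested loci within 50 kb, so they carry no test, and neighbouring loci may be parts of 1 transcript. On chromosome 16, between 19691070 and 19905869, all 7 tested loci were unannotated and had a positive log2FC (1.03 to 2.04), and 4 were called. Their calls held in 2, 4, 1 and 0 of the 4 fits that left out an animal. The locus with 1 was not tested in all 4 of these fits, and kept its call in 16 of the 17 alternatives that tested it. Their summed level was 13.9, 14.4, 25.9 and 18.6 CPM in PM, 17.5 ± 6.35 in GB, 16.9 ± 6.23 in SS and 1.39 ± 1.22 in ST (SD, n = 4). ST was the lowest muscle here, as for the slow genes.

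On chromosome 22, between 30154699 and 30252703, 9 adjoining unannotated loci all had an FDR of at most 0.05 and a log2FC of 0.86 to 1.15, and 3 were called. These 3 calls held in only 1, 2 and 0 of the 4 fits that left out an animal. Their summed level was 228, 218, 227 and 163 CPM in PM, 247 ± 149 in LL, 179 ± 87.4 in AD and 31.2 ± 11.8 in SS. Here SS was the lowest muscle, unlike for the slow genes. The annotated locus that follows at chr22:30252808-30328411 had a log2FC of 0.88 ± 0.08 and an FDR of 5.0e-04.

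On chromosome 18, between 64511233 and 64597220, all 8 tested loci had a positive log2FC (0.53 to 1.22) and 2 were called, with calls that held in 1 and 3 of the 4 fits that left out an animal. Their summed level was 76.4, 35.1, 55.1 and 34.6 CPM in PM, and 33.1 ± 4.80 CPM in SS and 26.9 ± 7.84 in GM, the next highest muscles. PM was highest in 2 of 4 animals, and animals 1 and 3 stood well above animals 2 and 4. On chromosome 3, between 138819344 and 138863155, 10 unannotated loci had a positive log2FC and 3 were called, yet LL (41.6 ± 25.6 CPM) and GM (29.5 ± 22.6 CPM) were above PM (22.3 ± 16.4 CPM) in the sum, and RF (2.11 CPM) and SS (1.61 CPM) were near 0. The 3 calls held in 2, 1 and 0 of the 4 fits that left out an animal.

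**Figure D4:**
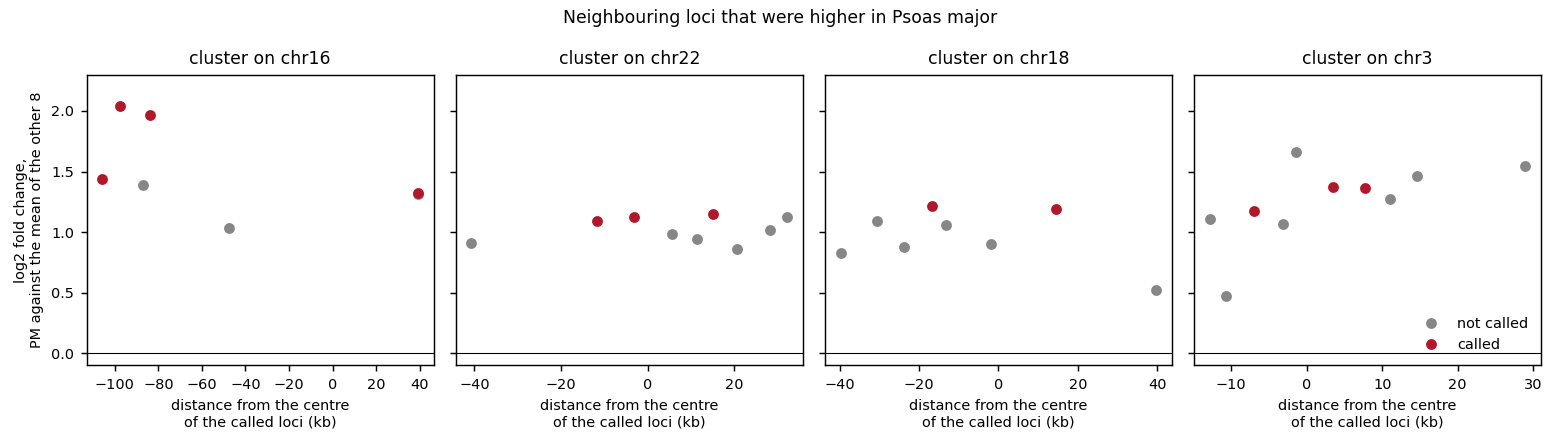
Log2 fold change of PM against the mean of the other 8 muscles (y axis) for each tested locus by its distance in kb from the centre of the called loci (x axis), in 4 stretches; red points were called and grey points were not. All points are above 0, and on chromosome 16 a called and an uncalled locus with the same coordinates overlap at the right.

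The number of loci called between PM and another muscle ran from 5 to 204. AD differed at 5 loci (0.0401%), GB at 11 (0.0883%) and GM at 12 (0.0963%). LL differed at 58 (0.465%), RF at 61 (0.49%), SS at 113 (0.907%), SM at 133 (1.07%) and ST at 204 (1.64%). Summed over the 8 pairs these were 597 calls, and 363 without animal 3 or 318 without animal 4. With each animal left out in turn, AD, GB and GM stayed at 1 to 16 calls and the other 5 muscles at 26 to 161, but the order within these groups changed: SS (120) was above ST (107) and SM (72) without animal 1, and below LL (32 against 45) without animal 3. The split between these groups did not hold in every setting. The likelihood ratio test gave 60 for GB, 24 for GM and 74 for LL. With no filter on low counts GB (156) was above LL (120). At an unadjusted p under 0.05 LL had 1264 loci, fewer than GB (1460) or GM (1539) and more than AD (957). Of the loci that separated PM from LL, 46 were higher in PM and 12 lower, while from SM 46 were higher and 87 lower, and from GB 1 was higher and 10 lower. Tested in the same way against the mean of its own other 8 muscles, ST gave 179 loci and SS 188, PM 44, and GB and AD 7 each. PM lay between the extremes in number of called loci, and these contrasts share samples, so differences between their counts were not tested. A count of calls also falls where the spread is larger, and the median residual per locus was 0.261 on the log2 CPM scale in PM and 0.242 to 0.308 in the others.

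**Figure D5:**
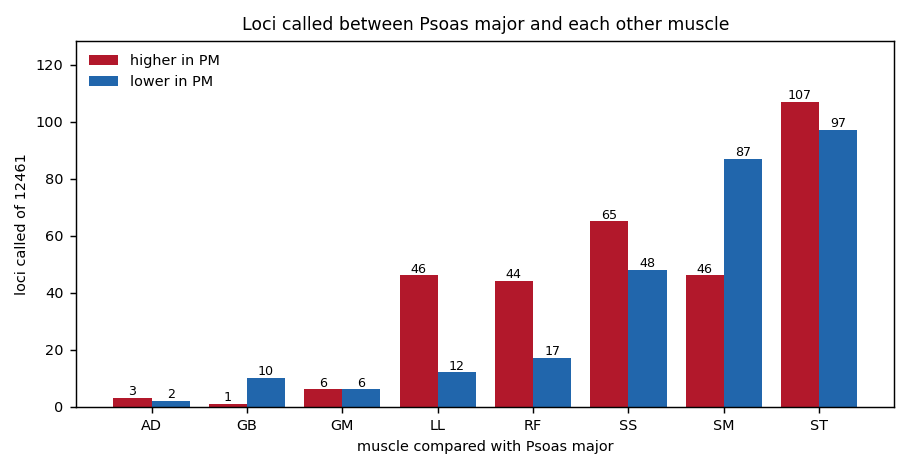
Number of loci called (y axis, of 12461 tested) between PM and each other muscle (x axis), split into loci higher in PM (red bars) and lower in PM (blue bars). Counts run from 3 and 2 against AD to 107 and 97 against ST, and against LL and RF more loci are higher than lower in PM.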

How the data were processed

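RNA from 9 muscles of 4 lambs (36 samples) was sequenced as 100-base paired-end reads. For alignment to Oar_v3.1 the authors used TopHat2 2.0.13. They assembled transcripts with Cufflinks 2.2.1 together with the Ensembl annotation, and counted reads per locus with HTSeq. The deposited values are whole-number counts without normalization, 31530 entries for 31136 loci, and each locus was used once. File starts, which count from 0, are given 1-based. Counting by strand is not given in the sources used here.

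Counts were analysed in R 4.3.3 with edgeR 4.0.16. Low loci were removed with filterByExpr by muscle, which left 12461, and libraries were scaled by TMM. Muscle and animal were fitted to all samples, and PM was compared with the mean of the other 8 muscles, and with each of them, by edgeR's quasi-likelihood test, adjusted after Benjamini and Hochberg. The animal term follows the study's methods and the animal numbers in the labels. Deviations of PM samples from their group means correlated with those of the same animal by 0.224 on average (31 of 32 pairs above 0.1) and with other animals by -0.0735. The negative value largely follows from centring each muscle on its own mean, so it is no separate evidence of pairing. The 6 pairs of PM samples differed beyond counting noise, at 5.86 to 10.4 times the chi-square that noise alone would give. SE values come from 4 within-animal differences of log2 CPM (prior count 2).

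The comparison, gene lists and named loci were chosen with earlier results of these data known. The rule for named loci took called loci with the same sign in 4 of 4 animals by smallest p, members of the lists, and genes for which the study printed coordinates, which had to fall within a tested locus. Not all of them are reported, stretches and loci highest or lowest in every animal were added after their values were seen, and some results are not reported here. Libraries ran in 4 lanes, and the lane of each library is not given in the sources used here, so its part was not tested. Floors cover counting error only. The procedure was tested on simulated data. Alternatives were the likelihood ratio test, no animal term, DESeq2 1.42.0, RLE size factors, other filters, the 4 most counted loci removed, other thresholds, and animals or muscles left out in turn.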

Additional observations from a re-analysis of the deposited data

Results flagged for a closer look

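In 5 of 36 named loci, 1 PM sample stood apart from the other 3 by Dixon's test, which flags about 1 in 20 groups of 4 by chance. PM of animal 1 was at 60.7 CPM for MYOM3, at 18.4 CPM for the unannotated locus at chr6:43210256-43215274 and at 36.9 CPM for the locus at chr1:175728403-175764056. PM of animal 3 was at 13.1 CPM for ENSOARG00000011739, and PM of animal 4 at 2.72 CPM for the locus at the MYL6 position. The call of the chr6 locus (log2FC 2.12 ± 0.60, FDR 0.0052) rested on animal 1, without which too few counts were left for a test. Its other PM samples were at 0, 0.207 and 0.287 CPM, and in animal 1 LL reached 59.9 CPM and AD 26.3 CPM, while every sample of animals 2, 3 and 4 was at or below 1.10 CPM.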

How the results depend on the processing

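All 44 called loci kept their direction wherever they were tested, and the slow-fibre list kept 8 or 9 of its 9 paired genes higher at an FDR of at most 0.05 in every fit that left out an animal. The number of called loci depended on the settings. Against the main 44 (39 higher, 5 lower, and 597 summed over the 8 pairs), the likelihood ratio test gave 68 (15 lower, 909 over pairs), the fit with no replicate block, that is without pairing by animal, 20 (19 higher, 1 lower, 248 over pairs), DESeq2 51 (8 lower), no filter on low counts 129 (86 higher, 43 lower, 1577 over pairs) and at least 10 counts in every sample 17 (14 higher, 3 lower, 318 over pairs), where only 17 of the 44 were still tested. An FDR of 0.05 gave 77 (20 lower, 1108 over pairs) and no fold threshold 82 (66 higher, 16 lower). Leaving out each animal gave 27 to 36 (24 to 33 higher, 2 to 4 lower, 318 to 426 over pairs), of which 25 to 28 were among the 44. Without ST in the mean 25 loci were higher. Those lower numbered 3 without SM, 8 without GM, 9 without LL and 11 without AD. The cause of these shifts was not tested, apart from the filters, which change the loci tested. Among single named loci, HOXC10 reversed to -0.12 without SS, 53 of the values under alternatives lost a call and 14 gained 1. Loci near the floor of 0.430 to 0.672 CPM carry few counts, and differences there may go undetected.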

Other observations

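A pair of short unannotated loci were called higher in PM and had a like order of muscles. The locus at chr21:48607766-48608531 measured 124, 194, 87.0 and 92.6 CPM in PM and a median of 41.4 CPM in the other samples (log2FC 1.55 ± 0.33, FDR 6.4e-05). The locus on scaffold JH922912.1 from base 23 to 191 measured 16.3, 28.7, 16.0 and 18.5 CPM in PM and a median of 6.43 CPM elsewhere (log2FC 1.60 ± 0.24, FDR 1.3e-05). In both, SM of animal 4 was the highest sample outside PM, at 108 and 20.5 CPM, and SS was among the low muscles. An annotated locus without a symbol at chr13:55853463-55893440 was at 1.79, 3.28, 0.8289 and 3.44 CPM in PM, at 2.46 CPM on average in AD and at 0.106 CPM in SS (log2FC 2.22 ± 0.22, FDR 5.4e-04), and it lost the call without animal 2 (FDR 0.0253).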
